A study of Mus musculus with 42 samples.

Results

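The footprint and input libraries of Pcif1 KO mouse brain were set against each other to describe how the brain transcriptome was distributed over ribosomes in animals without the methyltransferase. The comparison used 3 KO footprint libraries and 3 KO input libraries, and its members were the protein-coding rows of the deposited brain table with a rescaled value of at least 10 in at least 3 of these 6 libraries. This rule kept 13234 of the 22008 protein-coding rows. The series held 42 samples from brain, spleen and testis. It asked how loss of PCIF1 changed RNA levels, and ribosome footprinting was added in brain to look for effects on translation.

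The KO animals carried a Cas9 deletion of 89 bp across exon 15 and intron 16 of Pcif1, which took out the catalytic NPPF residues and introduced an early stop codon. The embryos injected were B6D2F1/J hybrids of C57BL/6J and DBA/2J, the founders were crossed to C57BL/6J, and the labels describe a single line of mice, so every KO value comes from 1 allele. The KO brains came from 3 adult Pcif1 KO mice and the WT brains, used here only beside the KO values, from 3 adult wild-type controls. All brains were snap-frozen and lysed in a buffer with 100 µg/ml of cycloheximide, which holds ribosomes in place. From each lysate 100 µl went to footprints, with 650 units of RNase I for 45 minutes at 23 °C, and 50 µl went to input RNA. The labels do not say which footprint library and which input library came from the same brain, and the groups were therefore compared without pairing.

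PCIF1 is the enzyme that adds a methyl group to the N6 position of a cap-adjacent 2′-O-methyladenosine, which gives m6Am at the first transcribed base of mRNAs that start with A. In ribosome footprinting, RNase I digests the mRNA that ribosomes do not cover, and the protected fragments are sequenced beside the RNA of the same lysate. The ratio of footprint to input for a gene is often called its translational efficiency. It also carries the share of each transcript that is coding, since ribosomes cover little outside the reading frame while input reads come from the whole transcript. Some mRNA classes are known for particular ribosome loading: mRNAs of ribosomal proteins and elongation factors start with a C and a pyrimidine run (the TOP motif) and respond to mTOR, upstream reading frames hold back several stress genes, and iron-regulatory proteins bind ferritin mRNA.

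The deposited values are normalised signals, not read counts. Spacing of the low values put the KO footprint libraries at an estimated 13613345 to 15497221 reads and the KO inputs at 5528846 to 16206748 reads, with input replicate 2 the shallow one. Ribosomal RNA rows took 67.6% to 72.6% of the footprint signal, against 7.61% to 7.82% of the input signal. Protein-coding rows took 25.3% to 30.0% of the footprint signal, against 42.8% to 43.5% of the input signal, and each library was therefore rescaled to the same protein-coding total. KO input replicate 2 stood apart from the other KO inputs, with a median absolute log2 deviation of 0.299, against 0.206 and 0.220. The KO footprint libraries were alike in this measure (0.242 to 0.259). Pcif1 itself had 332, 281 and 169.8 in KO footprints, against 276, 215 and 279 in KO inputs, a log2 ratio of -0.02 ± 0.26 (adjusted p = 0.952). The footprints and inputs overlapped. The deletion is a small part of the transcript, so this total is no check of the genotype labels.

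About as many genes were called different between KO footprints and KO inputs as were not called. A gene that was not called may still differ. By limma-trend on log2(signal + 1), with Benjamini-Hochberg adjustment over all 13234 genes and a call at 0.05, 2587 genes were higher in KO footprints than in KO inputs (19.5%) and 4172 were lower (31.5%). The size also passed 1 on the log2 scale for 1372 genes that were higher (10.4%) and 2881 that were lower (21.8%). Every footprint library lay above every input library for 3172 genes (24% of those tested), and below for 4881 (36.9%). The median log2 ratio was -0.21, the middle 50% of the genes ran between -0.98 and 0.47, and the span between the 5th and the 95th percentile was -2.38 to 1.59. For comparison, the median SE of a ratio was 0.235 and the median SD among replicates was 0.246 in footprints and 0.231 in inputs, on the log2 scale. The split depends on scaling. Without the rescaling, 3366 genes were called higher and 3315 lower and the median moved by 0.20 to -0.01, so each ratio below is best read against the median of -0.21.

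**Figure D1:**
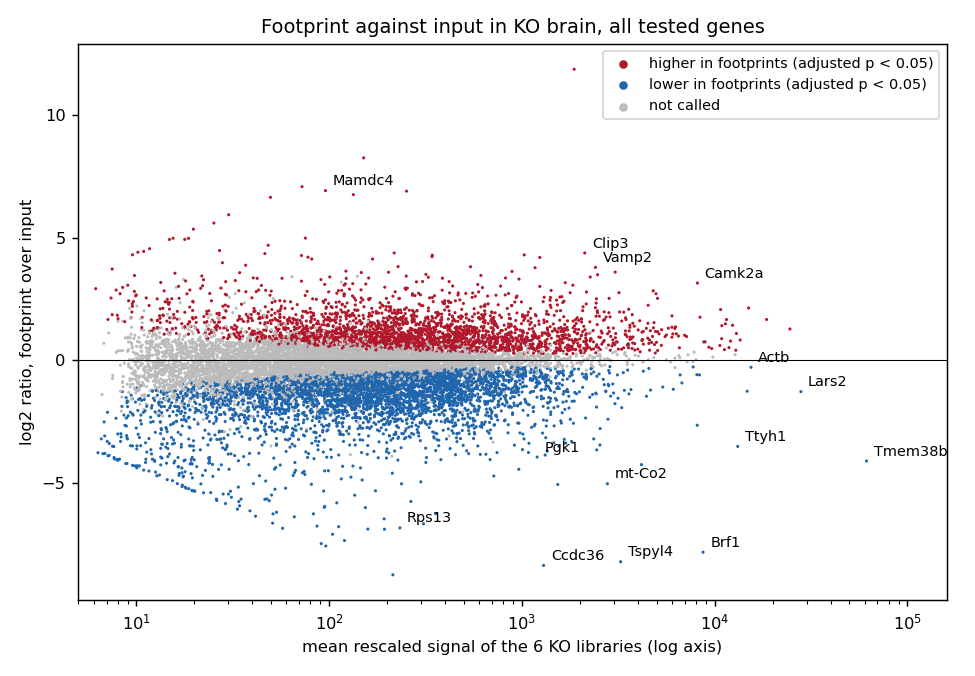
Log2 ratio of KO footprint over KO input (y axis) against mean rescaled signal of the 6 KO libraries (x axis, log scale) for the 13234 tested genes. Red and blue points passed limma at an adjusted p under 0.05; the 4172 blue points outnumber the 2587 red ones, and several genes of high input, such as Tmem38b and Ttyh1, lie far below 0.

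The genes of highest ratio included enzymes, neuronal proteins and small proteins. The 12 named were picked among genes with every footprint above every input, so that separation was set by the choice. Mamdc4, which encodes a MAM-domain protein, had 199.9, 208 and 164 in KO footprints, against 0.327, 0 and 2.01 in KO inputs. Its inputs were at or near 0, and its log2 ratio of 6.91 ± 0.46 (adjusted p = 3.88e-05) is set partly by the 1 added before taking logs, since it was 4.50 with 8 added. Mamdc4 passed the filter only through its footprints, so its direction was set by that. Clip3, a CAP-Gly linker protein of neuronal membranes, was well measured in both, with 3767, 4369.7 and 3987 in KO footprints, against 164, 244 and 184 in KO inputs. The groups lay far apart, at a log2 ratio of 4.37 ± 0.16 (adjusted p = 5.98e-06). Fah, the last enzyme of tyrosine breakdown, had 391, 388 and 469 in KO footprints, against 15.3, 20.9 and 21.6 in KO inputs (log2 4.37 ± 0.21, adjusted p = 1.34e-05). Every Fah footprint library was above every input library.

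Gstm1, a glutathione transferase, had 1836, 2009.9 and 2020.3 in KO footprints, against 91.5, 134 and 78.9 in KO inputs, and Pcp4, a calmodulin-binding protein abundant in Purkinje cells, had 2078, 2233 and 2732 in KO footprints, against 106, 172 and 113 in KO inputs. Their log2 ratios were 4.29 and 4.19, with no overlap in either gene. Prrt1, a protein associated with AMPA receptors, had 657, 612 and 687 in KO footprints, against 22.7, 43 and 35.3 in KO inputs (log2 4.28 ± 0.24, adjusted p = 2.12e-05). The same order held for Mt2, a metal-binding metallothionein, with 873, 1021 and 1143 in KO footprints, against 62.7, 71.4 and 79.6 in KO inputs (log2 3.81 ± 0.16). Syvn1, the ubiquitin ligase of endoplasmic reticulum-associated degradation, had a log2 ratio of 3.81, and Tmem159, Pianp, Fyb and Prr36 had ratios of 4.27, 4.22, 4.20 and 4.12. KO inputs were low for Tmem159 (6.37, 4.77 and 5.37) and for Fyb (1.46, 7.55 and 19.4). Tmem159 passed the filter only through its footprints, so its direction was set by that. Most Fyb inputs were also below the filter value, so its direction was partly set in this way. With 8 added before logs, the ratios of Tmem159 and Fyb were 3.3 and 3.2. As the choice required, none of these 12 genes had a footprint library within the range of its inputs.

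At the other end, genes with substantial input carried almost no footprints. The 12 named were likewise picked among genes with every footprint below every input. Tspyl4, a nucleosome-assembly-like protein encoded without introns, had 16.2, 14.2 and 39 in KO footprints, against 6470.4, 6944 and 6034 in KO inputs. This is a log2 ratio of -8.21 ± 0.34 (adjusted p = 8.83e-06), and it was -7.79 with 8 added before logs. Ccdc36, also known as Iho1 and a factor of meiotic recombination, had 4.03, 10.9 and 5.04 in KO footprints, against 1776, 4312 and 1669 in KO inputs (log2 -8.36 ± 0.45, adjusted p = 1.8e-05). Brf1, a subunit of the RNA polymerase III initiation factor, had 69.4, 65.5 and 46.6 in KO footprints, against 8078, 34865 and 9151 in KO inputs (log2 -7.82 ± 0.52, adjusted p = 3.75e-05). All 3 genes had footprints far below inputs in every library, and input replicate 2 was well above the other inputs for Ccdc36 and Brf1.

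Fam177a and Fam84b were listed at 0 in all KO footprint libraries, so no ratio is given. Their KO inputs were 205, 123 and 218 for Fam177a and 122, 123 and 99.2 for Fam84b. Igip, a small secreted protein known for raising IgA production, had 2.58, 0 and 4.36 in KO footprints, against 313, 349 and 284 in KO inputs (log2 -6.88 ± 0.60, and -4.99 with 8 added before logs). Sds, Rtl8a, Ackr1, Map4k1 and Hif3a had no footprint library above 5.05, against inputs of 30.8 to 1367. Hif3a, a hypoxia-inducible factor subunit, had inputs of 232, 1367 and 243, and Ackr1, an atypical chemokine receptor, had inputs of 312, 30.8 and 328. Input replicate 2 was the one that differed in both. The log2 ratios of Hif3a and Ackr1 were -6.66 and -6.78 with 1 added, -5.27 and -4.27 with 8 added, and -5.82 and -7.90 without that library. Igip and these 5 genes passed the filter only through their inputs, so their direction was set by that, and their sizes depend on the value added before logs. Predicted genes were left out of these sets of 12, and some were as far apart: Gm20721 had 4381, 3670.5 and 3160.2 in KO footprints, against 0 in every KO input, and Gm38394 had 0 in every KO footprint library, against 405, 460.5 and 419 in KO inputs. Both were picked after their values were seen. In all, 54 tested genes had every KO footprint listed at 0 and 13 had every KO input listed at 0.

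**Figure D2:**
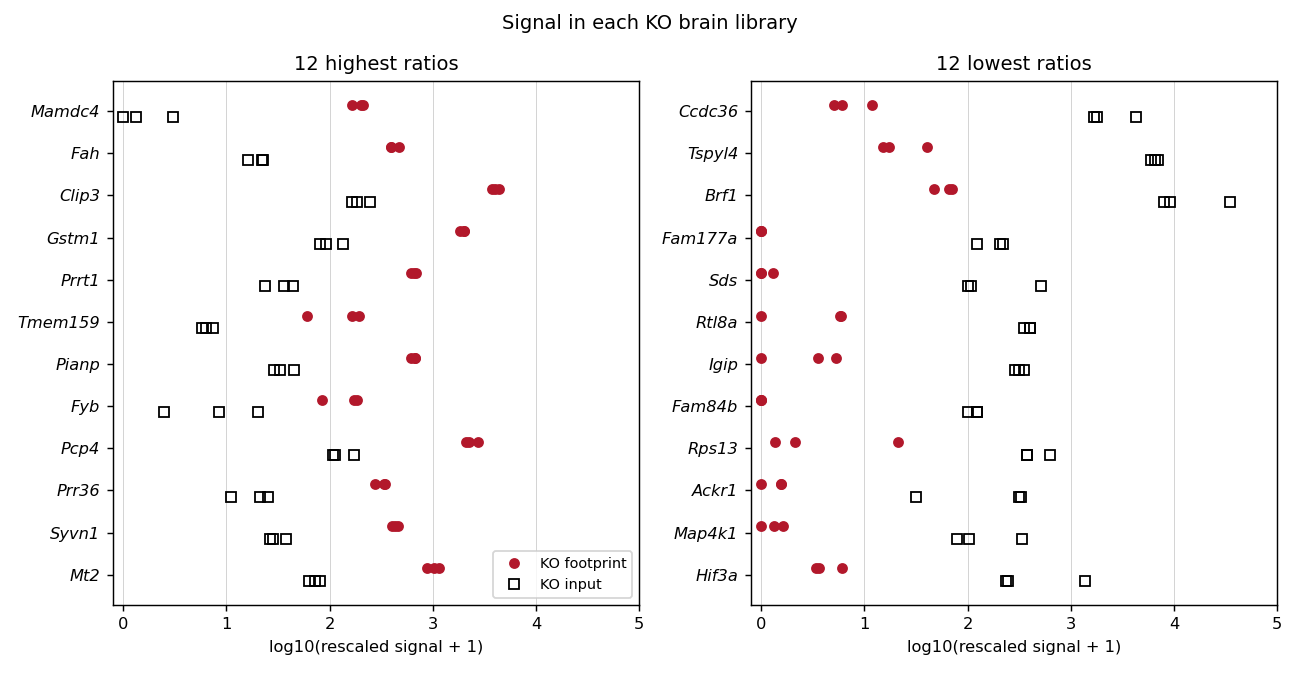
Signal in each KO library, as log10(rescaled signal + 1) on the x axis, for the 12 named genes of highest ratio (left) and the 12 of lowest ratio (right). Filled circles are the 3 footprint libraries and open squares the 3 inputs. The symbols do not overlap for any of the 24 genes, which the selection required. A single input lies apart from the other inputs for Ccdc36, Brf1, Sds, Ackr1, Map4k1 and Hif3a.

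The genes with the highest signal are given next, and signal is a quantity that grows with transcript length. Among the genes with the most footprint signal, Slc1a2, the astrocytic glutamate transporter, had 29714, 26991 and 28159 in KO footprints, against 8826, 8985 and 9030.5 in KO inputs (log2 1.66 ± 0.07), and Ckb, brain creatine kinase, had 21579, 26128 and 25634 in KO footprints, against 5575, 5244 and 5909.8 in KO inputs (log2 2.13 ± 0.09). App, Dync1h1, Atp1b1, Snap25 and Hsp90ab1 were at log2 ratios of 1.42, 1.09, 1.66, 0.82 and 2.06. These 7 genes had every footprint library above every input library. They are 7 of the 8 picked for high footprint signal, a choice that itself favours footprints above inputs.

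The input signal was led by rows that footprints did not match. Tmem38b, an ion channel of the endoplasmic reticulum, had 7136, 6116 and 6291 in KO footprints, against 117082, 78495 and 153476 in KO inputs (log2 -4.11 ± 0.22, adjusted p = 1.74e-05). Lars2, the mitochondrial leucyl-tRNA synthetase, had 14326, 14752 and 20026 in KO footprints, against 44063, 31437 and 43614 in KO inputs (log2 -1.28 ± 0.17), and Ttyh1, a membrane protein of glia, had 1969.7, 2072 and 1819 in KO footprints, against 32578, 11655 and 29009.6 in KO inputs (log2 -3.51 ± 0.35). Together with Brf1 these rows held 0.527% of the protein-coding signal in footprints and 4.19% in inputs. Which parts of these rows the input reads fell on cannot be read from values per gene, and how many belong to their mature mRNAs was not tested. With these 4 rows left out of the scaling, an alternative chosen after seeing the data, 2409 genes were called higher and 4416 lower. Actb, cytoplasmic beta-actin, also led the inputs, with 13306, 14475 and 13959 in KO footprints, against 17364, 17737 and 15878 in KO inputs (log2 -0.29 ± 0.07, adjusted p = 0.0133); its call was lost without rescaling (log2 -0.08, adjusted p = 0.387) and without KO input replicate 1 (adjusted p = 0.0521) or KO footprint replicate 1 (adjusted p = 0.0502).

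The gene groups described next were taken from lists of known function. Every count of called members below is to be read against the shares over all tested genes, 19.5% higher and 31.5% lower. Their spread was wide, from ribosomal proteins and ion channels, most of whose called members were lower in footprints, to neuropeptides, glycolytic enzymes and synaptic vesicle proteins, most of whose called members were higher.

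**Figure D3:**
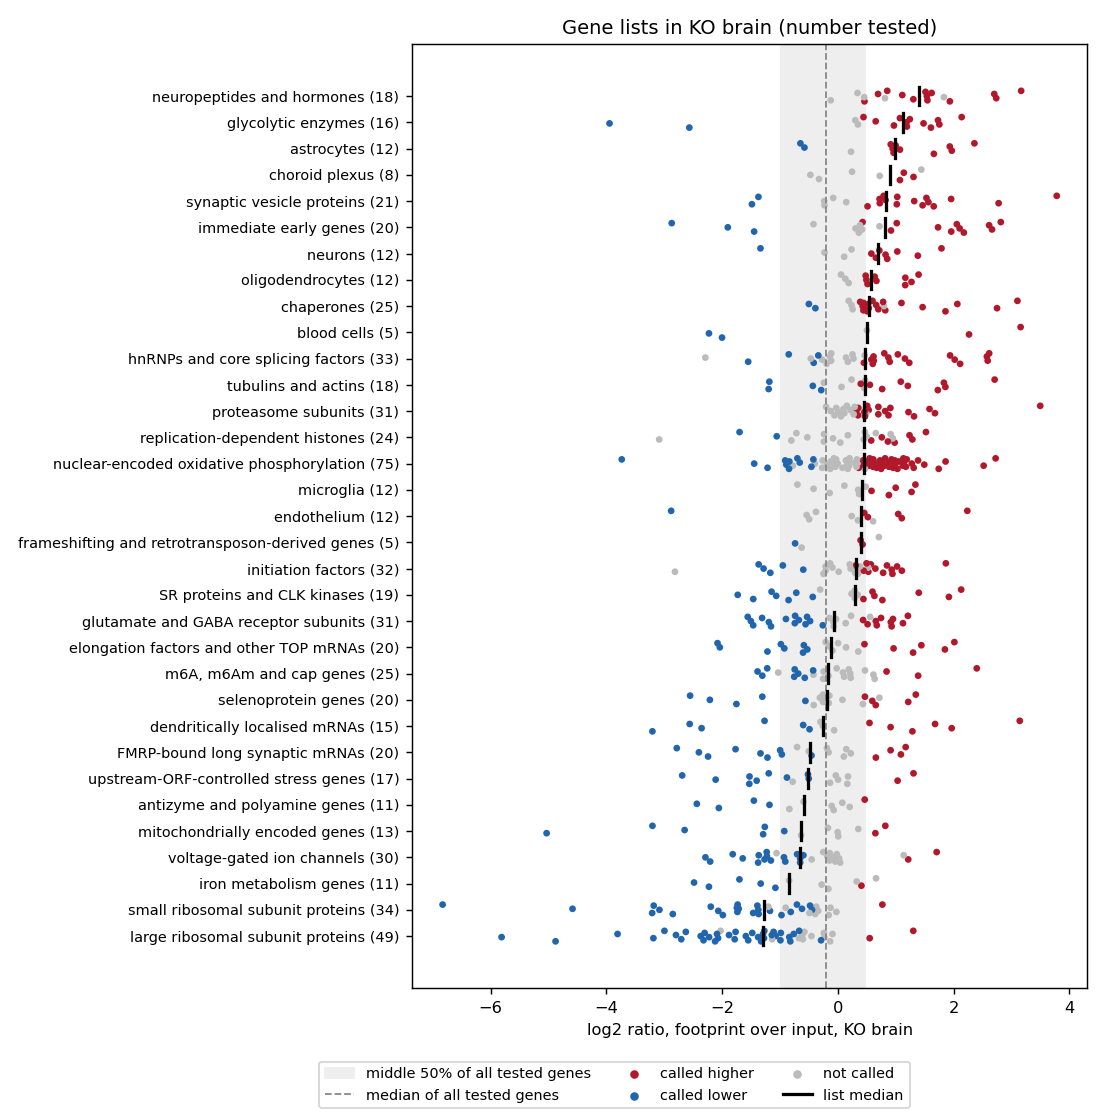
Log2 ratio of KO footprint over KO input (x axis) for the tested members of each gene list other than genes absent from brain (rows, with the number tested), with red and blue for genes called higher and lower. Black bars mark list medians, which run from 1.41 for neuropeptides to -1.29 for large-subunit ribosomal proteins; the grey band and dashed line mark the middle 50% and the median of all tested genes.

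Ribosomal protein genes had the lowest medians of the 34 lists. Of 49 large-subunit genes, 36 were lower in KO footprints and 2 higher, with a median log2 ratio of -1.29; of 34 small-subunit genes, 24 were lower and 1 higher, with a median of -1.28. Over all tested genes 31.5% were lower and the median was -0.21. Rpl35, a large-subunit protein, had 4.87, 30.0 and 3.91 in KO footprints, against 324, 257 and 271 in KO inputs (log2 -4.88 ± 0.66, adjusted p = 0.000781). Rps6, the small-subunit protein phosphorylated downstream of mTOR, had a log2 ratio of -3.21 (adjusted p = 1.3e-05), with 74.6, 73.7 and 86.7 in KO footprints, against 729.6, 828 and 648 in KO inputs. With the pseudogene rows described next added, Rps6 was at -0.49 (adjusted p = 0.00655), so how low it is remains uncertain. Rps12 had a ratio of -4.59, and -4.50 with its pseudogene rows. Rpl17 had a ratio of -5.81, and -1.91 with its pseudogene rows; its own row passed the filter only through its inputs. The exceptions were Rpl15, with 831, 908 and 654 in KO footprints, against 377, 272 and 319 in KO inputs (log2 1.30 ± 0.17), Rpl7a (log2 0.55) and Rps10 (log2 0.77). Footprints lay above inputs in every library for these 3 genes. With the spread taken over all 12 brain libraries, Rpl7a and Rps10 were no longer called (adjusted p = 0.136 and 0.0950).

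Many ribosomal protein genes have processed pseudogenes with nearly the same sequence, and counting could have split reads between a gene and its copies. Rps13, a small-subunit protein, shows how far this reached: its own row had 1.11, 20.0 and 0.35 in KO footprints, against 376, 626 and 374 in KO inputs, and the 7 pseudogene rows named after it had 448, 429 and 542 in KO footprints, against 209, 76.6 and 160.2 in KO inputs. The gene row was low in footprints and the pseudogene rows were high. Added together, they gave 449, 449 and 543 in KO footprints, against 585, 703 and 535 in KO inputs, and the log2 ratio of -6.83 became -0.34 (adjusted p = 0.0857). Rps13 is therefore reported as uncertain. Rps6, Rpl17, Rpl38 and Rpl19 moved in the same direction, Rpl38 to -0.44, against -2.71 as deposited, and Rpl19 to -0.55, against -3.81 as deposited.

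Across the 83 ribosomal protein genes, 60 had at least 1 such row, 283 rows in all. The genes summed to 24714, 24461 and 23341 in KO footprints, against 51177, 50678 and 48792 in KO inputs. Their pseudogene rows summed to 8178, 7913 and 7834 in KO footprints, against 7716, 6451 and 6276 in KO inputs. The gene sum was lower in every footprint library than in every input library, and the pseudogene sum was higher. With these pseudogene rows added, 56 of the 83 genes were lower and 5 higher, with a median of -0.98. As deposited, 60 were lower and 3 higher, with a median of -1.29, and 56 genes were lower both ways. Only rows named after a gene were added, so pseudogene rows under other symbols were left out. Pseudogene rows of any name stood at 3.63 to 3.73 per 100 of protein-coding signal in KO footprints, and 1.70 to 2.00 in KO inputs. Among all tested genes, the 252 with a pseudogene row of their name had a median of -0.45 and 42.1% were lower, against a median of -0.21 and 31.3% for the others. The 252 include the 60 ribosomal protein genes with such a row, so this difference is not separate from theirs. Whether it holds without the ribosomal protein genes was not tested.

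**Figure D4:**
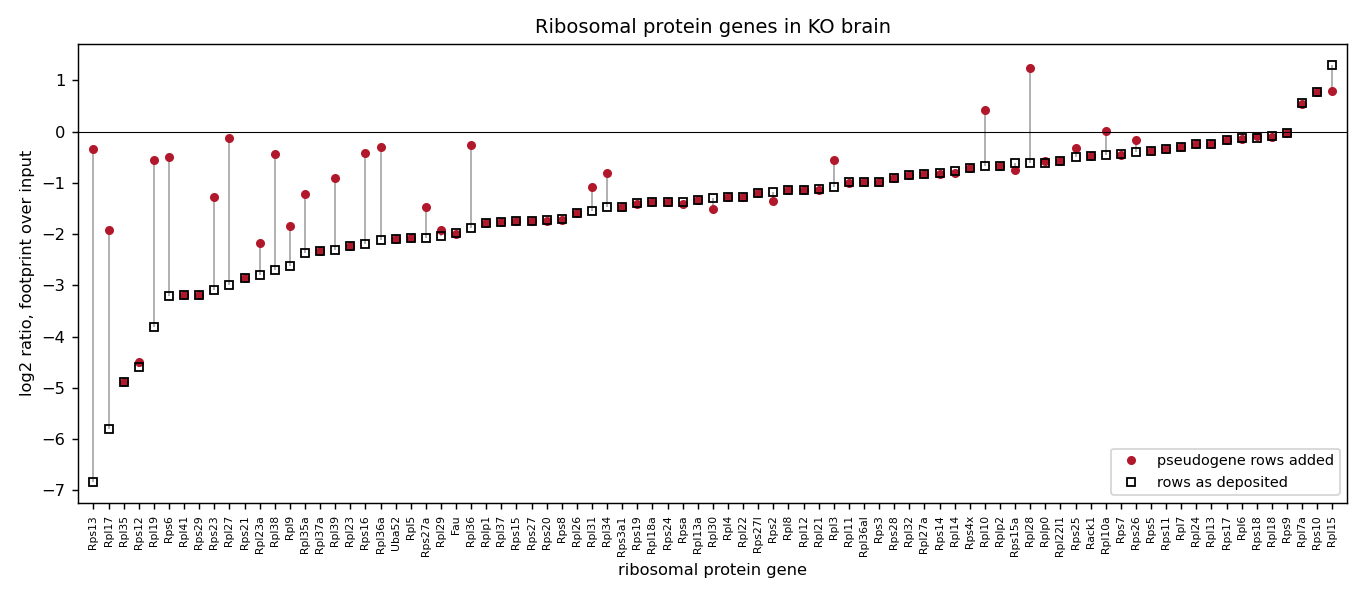
Log2 ratio of KO footprint over KO input (y axis) for the 83 ribosomal protein genes, ordered by their ratio as deposited (open squares), with the ratio after adding pseudogene rows (red circles). Lines join both values of a gene; Rps13 moves from -6.83 to -0.34, and most genes remain below 0.

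The starts of 6 ribosomal protein genes are shown because the TOP motif sits there, and because they cover both ends of the 13 ribosomal protein genes found with the run: the 4 lowest and the 2 highest ratios. Each sequence holds 15 bases before and 15 from the start annotated in RefSeq GRCm38.p6, on the coding strand and 5′ to 3′, with the first transcribed C and the 4 pyrimidines after it in capitals. The ratios beside them are those of the rows as deposited; with pseudogene rows added, Rps6 was at -0.49, Rpl38 at -0.44 and Rpl15 at 0.80, so Rps6 and Rpl38 were then no longer among the far low ones. They lie at chr2:39005117-39005146 (minus strand, Rpl35), chr4:86857353-86857382 (minus strand, Rps6), chr11:114668565-114668594 (plus strand, Rpl38), chr19:6057932-6057961 (plus strand, Fau), chr17:27635230-27635259 (minus strand, Rps10) and chr14:18270972-18271001 (minus strand, Rpl15).
Rpl35 (log2 -4.88): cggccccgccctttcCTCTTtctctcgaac
Rps6 (log2 -3.21): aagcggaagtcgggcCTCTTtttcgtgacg
Rpl38 (log2 -2.71): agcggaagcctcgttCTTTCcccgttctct
Fau (log2 -1.99): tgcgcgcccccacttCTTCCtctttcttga
Rps10 (log2 0.77): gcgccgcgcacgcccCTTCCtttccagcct
Rpl15 (log2 1.30): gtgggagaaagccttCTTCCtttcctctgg

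All 6 were chosen for having the run, and several ribosomal protein genes of lower ratio, such as Rps13, Rpl17, Rps12 and Rpl19, are not among the 13. Only symbols with 1 promoter entry were matched, so a gene outside the 13 may be unmatched rather than without the run. A C followed by 4 C or T at the annotated start, on the coding strand, was found in 2.5% of all promoter entries and in 13 of the 53 ribosomal protein genes with a matched entry (24.5%). The 13 with the run had a median log2 ratio of -0.67 and 9 were lower, while the 40 without it had a median of -1.23 and 27 were lower. Annotated starts can differ by a few bases from those used in brain, so a gene without the letters here may still begin with such a run.

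Elongation factors and other mRNAs of the TOP class were mixed. Of 20 genes, 6 were higher and 8 lower, with a median of -0.12 that became 0.09 without rescaling and -0.01 without KO input replicate 3. Tpt1, the translationally controlled tumour protein, had 196, 220.2 and 241 in KO footprints, against 872, 1060.3 and 858 in KO inputs (log2 -2.08 ± 0.14, adjusted p = 3.75e-05; -0.34 with its pseudogene rows added), and Naca, part of the nascent polypeptide-associated complex, had 173, 206 and 159 in KO footprints, against 707, 874 and 646 in KO inputs (log2 -2.04 ± 0.16). Eef2, the translocation factor, and Eef1a1, which brings aminoacyl-tRNA to the ribosome, had ratios of -0.93 and -0.59 and were called lower. Vim, an intermediate filament protein, had 686, 591 and 742 in KO footprints, against 169, 169 and 157 in KO inputs (log2 2.01 ± 0.13), and Pabpc1, the poly(A)-binding protein, had a ratio of 0.96; both were called higher.

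Of 32 tested initiation factor genes, 13 were higher and 5 lower (19.5% and 31.5% over all tested genes), with a median of 0.32. Eif2b1, a subunit of the exchange factor that recharges eIF2, had 119, 154 and 159.8 in KO footprints, against 29.5, 40.3 and 47.9 in KO inputs (log2 1.87 ± 0.25), and Eif3g, a subunit of eIF3, had 439.6, 443 and 460.0 in KO footprints, against 201, 213 and 209 in KO inputs (log2 1.11 ± 0.11). Eif2s3x, the X-linked gamma subunit of eIF2, had 173, 179 and 223 in KO footprints, against 448, 623 and 430.3 in KO inputs (log2 -1.37 ± 0.19, adjusted p = 0.000803). Eif4g1 and Eif4g2, scaffold proteins of initiation, were also lower, at -0.60 and -1.28, whereas Eif4a1, the helicase, was higher at 1.02. Eif3j1 varied widely between footprint libraries, with 89.7, 20.1 and 1.18 in KO footprints, against 155, 87.7 and 105 in KO inputs, and was not called (adjusted p = 0.0833).

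Of 17 genes known for upstream reading frames, 9 were lower and 2 higher, with a median of -0.52. Ppp1r15a, the stress-inducible phosphatase subunit GADD34, had 10.4, 17.6 and 16.2 in KO footprints, against 105, 41 and 65.4 in KO inputs (log2 -2.11 ± 0.41, adjusted p = 0.00398), and Tmem183a had 50.2, 86.7 and 43.8 in KO footprints, against 456, 443 and 265 in KO inputs (log2 -2.69 ± 0.32). Cebpa and Cebpb, transcription factors with regulated start sites, had ratios of -1.53 and -1.40. Atf4, the transcription factor best known for this control, had 384, 315 and 365 in KO footprints, against 343, 330.3 and 388 in KO inputs, a log2 ratio of 0.00 (adjusted p = 0.983). Uchl1, a neuronal deubiquitinase, was higher, with 4015, 4816 and 3929 in KO footprints, against 1574, 1749.6 and 1818 in KO inputs (log2 1.31 ± 0.11). Atf5 was called higher with all libraries (log2 1.03, adjusted p = 0.0445), and lost the call without KO input replicate 2 or 3 or any 1 of the 3 KO footprint libraries (adjusted p of up to 0.130).

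Polyamine genes, several of which are controlled in translation by polyamines, had 4 lower and 1 higher of 11 tested, with a median of -0.59; over all tested genes 31.5% were lower, so this count is near the background. Sms, spermine synthase, had 168, 105 and 103 in KO footprints, against 580.4, 851 and 597 in KO inputs (log2 -2.44 ± 0.24, adjusted p = 0.000184; -1.39 with pseudogene rows added), and Azin2, an antizyme inhibitor, had 92.3, 67.8 and 45.5 in KO footprints, against 328, 235 and 276 in KO inputs (log2 -2.06 ± 0.28). Oaz1, the antizyme that needs a frameshift to be made, had a ratio of -1.45 and was called lower. Without KO input replicate 2, 6 polyamine genes were called lower and the median was -1.06. Genes that use ribosomal frameshifting or derive from retrotransposons had 2 called higher (Arc and Zcchc12) and 1 lower (Peg10, log2 -0.74) of 5 tested, with a median of 0.39. Without KO input replicate 3 or KO footprint replicate 2, 0 of these 5 were called higher.

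Selenoprotein genes, whose mRNAs read a stop codon as selenocysteine, had 5 higher and 5 lower of 20 tested, near the 19.5% and 31.5% over all tested genes. Their median was -0.19, against -0.21 over all, and it was 0.02 without rescaling and -0.12 without KO input replicate 2. Gpx4, the lipid peroxide-reducing glutathione peroxidase, had 349, 339 and 267 in KO footprints, against 1569, 1395 and 1447 in KO inputs (log2 -2.21 ± 0.13, adjusted p = 2.55e-05; -1.16 with pseudogene rows added), and Dio2, the deiodinase that activates thyroid hormone, had 79.8, 81.7 and 97.3 in KO footprints, against 465, 531 and 535 in KO inputs (log2 -2.55 ± 0.15). Selenoi and Txnrd1 were higher, at 1.35 and 1.22. Txnrd1 encodes cytosolic thioredoxin reductase.

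In iron metabolism, 5 of 11 tested genes were lower and 1 was higher (31.5% and 19.5% over all tested genes), with a median of -0.84. Ftl1 and Fth1, the ferritin chains whose mRNAs carry iron-responsive elements, had log2 ratios of -2.49 and -1.08. Ftl1 had 97.5, 72.7 and 39.8 in KO footprints, against 316, 420.3 and 388 in KO inputs (adjusted p = 0.000625), with no overlap. Tfrc, the transferrin receptor, was not called at 0.66 ± 0.26 (adjusted p = 0.0715), though it was without rescaling (0.87, adjusted p = 0.0274) and without KO input replicate 1 (0.95, adjusted p = 0.00970). Replication-dependent histone genes had 7 higher and 2 lower of 24 (19.5% and 31.5% over all tested genes), with a median of 0.46. Members of this family share sequence, so reads may have been split among them.

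The 13 mitochondrially encoded mRNAs, translated by mitochondrial ribosomes, included some of the largest deficits. Of these, 6 were lower and 2 higher, with a median of -0.64 that ran between -1.05 without KO input replicate 1 and -0.04 without KO input replicate 2. The summed signal was 23257 to 25294 in footprints and 44949 to 73205 in inputs. mt-Co2, a subunit of complex IV, had 97.6, 496 and 82.1 in KO footprints, against 4961, 6776 and 4259 in KO inputs (log2 -5.03 ± 0.63, adjusted p = 0.000539), and mt-Nd3, a subunit of complex I, had 292, 176 and 149 in KO footprints, against 1733, 2269 and 1539.6 in KO inputs (log2 -3.20 ± 0.26). mt-Co1 and mt-Co3, the other core subunits of complex IV, had ratios of -1.26 and -2.65. mt-Nd2 and mt-Nd5 were called higher, at 0.82 and 0.65, and both lost the call without KO input replicate 1 (adjusted p = 0.0604 and 0.0769), without KO input replicate 3 (0.0567 and 0.0729) and without KO footprint replicate 2 (0.0523 and 0.0787). mt-Nd2 also lost it without KO footprint replicate 3 (adjusted p = 0.0522), and mt-Nd5 without KO footprint replicate 1 (adjusted p = 0.0570).

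Nuclear-encoded subunits of oxidative phosphorylation had 39 genes higher and 11 lower of 75, with a median of 0.45. Ndufv3, an accessory subunit of complex I, had 483, 571 and 467 in KO footprints, against 76, 80.1 and 70.6 in KO inputs (log2 2.73 ± 0.15, adjusted p = 1.83e-05). Atp5g2, which encodes the ring subunit of ATP synthase, had 369.6, 369 and 275 in KO footprints, against 43.7, 70.7 and 61.7 in KO inputs (log2 2.52 ± 0.23), and its paralogs differed, with Atp5g3 at 1.86 and Atp5g1 at -0.91, all called. Cycs, cytochrome c, had 45.4, 3.46 and 3.94 in KO footprints, against 118, 149.6 and 134 in KO inputs (log2 -3.74 ± 0.85, adjusted p = 0.00835), and Cox7c had a ratio of -1.45.

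Glycolytic enzymes were higher in 12 of 16 cases and lower in 2, with a median of 1.13. Hk1, the brain hexokinase, had 3657, 4190.0 and 3899 in KO footprints, against 859, 728 and 1112 in KO inputs (log2 2.14 ± 0.16, adjusted p = 5.43e-05), and Aldoa, aldolase A, had 13065, 13469 and 12359.8 in KO footprints, against 3807, 3672 and 4049 in KO inputs (log2 1.75 ± 0.07). Gapdh and Pkm, glyceraldehyde-3-phosphate dehydrogenase and pyruvate kinase, were at 1.19 and 1.48. Pgk1, phosphoglycerate kinase, was the far exception, with 140.4, 137 and 159.7 in KO footprints, against 2272, 2260.2 and 2233 in KO inputs (log2 -3.95 ± 0.11, adjusted p = 4.26e-06). The pseudogene rows named after Pgk1 had 0, 0 and 286 in KO footprints, against 0 in each KO input. Adding these rows left a log2 ratio of sums of -3.23. Pgam1, phosphoglycerate mutase, was the other, with 217, 325 and 299 in KO footprints, against 1498, 1860.5 and 1595 in KO inputs (log2 -2.57 ± 0.17). Here the 2 pseudogene rows had 4633, 4555 and 3874 in KO footprints, against 427, 384 and 457 in KO inputs, and with them added the ratio turned to 1.15 (adjusted p = 0.000105). The direction of Pgam1 is therefore uncertain.

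Proteasome subunits had 18 genes higher and 0 lower of 31 at an adjusted p under 0.05 in limma, with a median of 0.46. At an unadjusted p under 0.05 the counts were 19 and 0. The count of 18 became 12 without KO input replicate 1, and 13 without KO input replicate 3 or KO footprint replicate 1 or 2. It became 23 without rescaling. Psmb2, a core subunit, had 591, 523 and 641 in KO footprints, against 44.2, 50.8 and 57.9 in KO inputs (log2 3.50 ± 0.17, adjusted p = 1.3e-05), and Psmc4, an ATPase of the cap, had 543, 687 and 671 in KO footprints, against 194, 177 and 219 in KO inputs (log2 1.68 ± 0.15). The lowest member was Psmd13, with 457, 581 and 393 in KO footprints, against 563, 516 and 549 in KO inputs (log2 -0.20 ± 0.16, adjusted p = 0.313), and its groups overlapped. Chaperones had 19 higher and 2 lower of 25 tested, with a median of 0.53. Only 1 was called lower without rescaling, without KO input replicate 1 or 3, or without KO footprint replicate 1 or 2. Calr, the calcium-binding chaperone of the endoplasmic reticulum, had 5623, 5409 and 5617 in KO footprints, against 957, 751 and 777 in KO inputs (log2 2.75 ± 0.11, adjusted p = 7.17e-06), and Pdia3, its partner isomerase, had a ratio of 1.46. Hspa1b, an inducible Hsp70, had 305, 247 and 279.9 in KO footprints, against 19.4, 38.7 and 40.5 in KO inputs (log2 3.10 ± 0.30); it is nearly identical to Hspa1a (0.80, not called), and how reads were split between them is uncertain. Cct3, a subunit of the folding chaperonin, was lower at -0.50 ± 0.09, whereas Cct8 and Cct2 of the same complex were higher at 1.10 and 0.78.

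Among splicing regulators, SR proteins and CLK kinases were split, with 7 higher and 7 lower of 19 (19.5% and 31.5% over all tested genes). Their median was 0.29. Srrm1, an SR-related matrix protein, had 497, 551 and 548 in KO footprints, against 125, 157 and 89.3 in KO inputs (log2 2.13 ± 0.21), and Srsf3, the smallest SR protein, had 156, 221 and 157 in KO footprints, against 462, 519.9 and 477 in KO inputs (log2 -1.46 ± 0.17, adjusted p = 0.000389). The kinases that phosphorylate SR proteins were all below 0: Clk3 and Clk4 were called lower at -1.07 and -1.15, Clk2 was not called (-0.31), and Clk1 (-1.73 ± 0.56) was called with all libraries but not without KO input replicate 1, 2 or 3 or KO footprint replicate 2 (adjusted p of up to 0.0975). The median of this list was 0.02 without KO input replicate 2 and 0.16 without KO footprint replicate 3, and 4 genes were called lower without KO input replicate 1. hnRNPs and core splicing factors had 17 higher and 4 lower of 33, with a median of 0.46. Hnrnpd, which binds AU-rich elements, had 1608, 1616 and 1643 in KO footprints, against 257, 266 and 269.6 in KO inputs (log2 2.62 ± 0.09, adjusted p = 5.98e-06). U2af1, the small subunit of the 3′ splice site factor, was lower at -1.55 ± 0.18, and its partner U2af2 higher at 1.16.

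Genes of m6A, m6Am and the cap had 3 higher and 8 lower of 25, with a median of -0.16. Over all tested genes 31.5% were lower and the median was -0.21, so as a group these genes were near the background. Their median became 0.04 without rescaling, -0.05 without KO input replicate 3 and -0.10 without KO footprint replicate 2, and 5 were called lower without KO input replicate 1. Cbll1, a subunit of the m6A methyltransferase complex also called HAKAI, had 116, 181 and 174 in KO footprints, against 26.1, 36.1 and 24.3 in KO inputs (log2 2.40 ± 0.27, adjusted p = 0.000331). Fto, which removes the methyl group of m6Am and m6A, was higher at 0.84, and Alkbh5, an m6A demethylase, was lower, with 213, 271 and 195 in KO footprints, against 511, 595 and 565 in KO inputs (log2 -1.31 ± 0.16). Dcp2, the decapping enzyme, had 179.7, 93.8 and 154 in KO footprints, against 454, 276 and 377 in KO inputs (log2 -1.39 ± 0.28). Mettl3 and Mettl14, the catalytic core of the m6A methyltransferase, were not called, at -1.03 (adjusted p = 0.229) and 0.61 (adjusted p = 0.104).

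Immediate early genes, which neurons switch on within minutes of activity, had 11 higher and 3 lower of 20, with a median of 0.82. Fos had 477, 565 and 503 in KO footprints, against 74.6, 73.9 and 93.6 in KO inputs (log2 2.66 ± 0.16, adjusted p = 2.49e-05), and Fosb had 76, 73.3 and 116 in KO footprints, against 7.64, 16.3 and 11.8 in KO inputs (log2 2.82 ± 0.35). Egr1, Egr2, Egr3 and Egr4, zinc-finger transcription factors, were all higher, at 2.61, 2.10, 2.06 and 1.96. Jund, a Jun family member expressed without stimulation, had 148, 121 and 113 in KO footprints, against 917, 956 and 922 in KO inputs (log2 -2.87 ± 0.14, adjusted p = 1.3e-05), and Btg2, an antiproliferative co-regulator, had 59.3, 73.6 and 68.7 in KO footprints, against 215, 337 and 223 in KO inputs (log2 -1.90 ± 0.22); both were lower in every library.

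mRNAs known to travel into dendrites were evenly split, 6 higher and 6 lower of 15 (19.5% and 31.5% over all tested genes). Their median of -0.26 was -0.09 without KO input replicate 1 and -0.42 without KO input replicate 2. It was -0.17 without KO footprint replicate 3 and -0.05 without rescaling. Camk2a, the alpha subunit of calcium/calmodulin kinase II, had 14612, 15002 and 14300.4 in KO footprints, against 1619.7, 1571 and 1781 in KO inputs (log2 3.14 ± 0.08, adjusted p = 4e-06), and Nrgn, neurogranin, had 5115, 4891 and 5362 in KO footprints, against 1381, 1271 and 1276 in KO inputs (log2 1.97 ± 0.08). In contrast Ddn, dendrin, had 486, 463 and 441 in KO footprints, against 2829, 2483 and 2916 in KO inputs (log2 -2.56 ± 0.10), and Ppp1r9b, the spine protein spinophilin, had 664, 430.2 and 337 in KO footprints, against 4291, 3915 and 4520.2 in KO inputs (log2 -3.21 ± 0.23, adjusted p = 4.94e-05). Neither end of this list had overlapping groups. The Shank scaffold genes also differed, with Shank1 at 1.29 and Shank2 at 0.55 called higher and Shank3 at -0.49 called lower.

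Long synaptic mRNAs bound by FMRP, a protein known for slowing ribosomes on them, had 4 higher and 9 lower of 20. The shares over all tested genes were 19.5% and 31.5%, so the count of higher genes was near the background. The list median was -0.48. Macf1, a cytoskeletal crosslinker of very large size, had 727, 453 and 805 in KO footprints, against 4345, 4384 and 4572 in KO inputs (log2 -2.78 ± 0.20, adjusted p = 5.43e-05). Huwe1 and Herc1, giant ubiquitin ligases, were lower at -1.77 and -1.34. Dync1h1, the dynein heavy chain, had 15131, 20312 and 17645 in KO footprints, against 8401, 7999 and 8378 in KO inputs (log2 1.09 ± 0.11), and Lrp1, an endocytic receptor, had 8594, 6393 and 5555 in KO footprints, against 2688, 3766 and 2636 in KO inputs (log2 1.17 ± 0.20); both were higher. Coding length was not used here, and its part in these ratios was not tested.

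Receptor subunits for glutamate and GABA had 10 higher and 14 lower of 31 (19.5% and 31.5% over all tested genes). Their median of -0.07 was 0.13 without rescaling and -0.12 without KO input replicate 1. It was -0.21 without KO footprint replicate 2 and -0.16 without KO footprint replicate 3. Gabrb1 had 951, 1097 and 1212 in KO footprints, against 427, 539 and 441 in KO inputs (log2 1.21 ± 0.14), and Grm2, a presynaptic metabotropic receptor, had 348, 322 and 327 in KO footprints, against 147, 160.3 and 148 in KO inputs (log2 1.13 ± 0.13). Grin2c, an NMDA receptor subunit of cerebellar granule cells, had 163, 129 and 108 in KO footprints, against 367, 379 and 423 in KO inputs (log2 -1.56 ± 0.18, adjusted p = 0.000389), and Grm4 had a ratio of -1.50. The obligate NMDA subunit Grin1 was higher at 0.67, Grin2a was lower at -0.48, and Grin2b was not called (-0.03, adjusted p = 0.901).

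Voltage-gated channels were mostly lower, 16 of 30 against 2 higher, with a median of -0.65. Scn3a, a sodium channel, had 117, 117 and 139 in KO footprints, against 783, 324 and 750.3 in KO inputs (log2 -2.21 ± 0.33, adjusted p = 0.00127). Scn1a and Scn2a, the main sodium channels of interneurons and of excitatory neurons, were lower at -1.27 and -1.23. Cacna1a, the P/Q-type calcium channel of presynaptic terminals, had 1044, 1224 and 2589 in KO footprints, against 409, 498 and 464 in KO inputs (log2 1.71 ± 0.32, adjusted p = 0.00333). It was higher in every footprint library than in every input, and footprint replicate 3 was well above the other footprint libraries.

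Synaptic vesicle proteins were higher in 15 of 21 cases and lower in 2, with a median of 0.82. Vamp2, the vesicle SNARE, had 4426, 4542 and 4512 in KO footprints, against 307, 383 and 293 in KO inputs (log2 3.78 ± 0.12, adjusted p = 5.31e-06), and Syn1, synapsin, had 3826, 3776 and 3714 in KO footprints, against 477, 689 and 502 in KO inputs (log2 2.78 ± 0.14). Cplx2, a complexin, had 1863, 2327 and 1836 in KO footprints, against 4911, 5475 and 5147 in KO inputs (log2 -1.37 ± 0.11, adjusted p = 8.13e-05), whereas Cplx1 was higher at 1.56. Rab3a, the vesicle GTPase, was lower on its row on chromosome 8, with 438, 537 and 438 in KO footprints, against 1282, 1256 and 1414 in KO inputs (log2 -1.49). A second row of the same symbol, on an alternative sequence, had 4768, 4648 and 4191 in KO footprints, against 436, 353 and 428 in KO inputs, and both rows together had a log2 ratio of sums of 1.54, so its direction is uncertain.

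Neuropeptide and hormone precursors had the highest list median, 1.41, with 13 higher and 0 lower of 18 tested by limma (15 and 0 at an unadjusted p under 0.05). Sst, somatostatin, had 844, 1102 and 955 in KO footprints, against 124, 176 and 134 in KO inputs (log2 2.74 ± 0.17, adjusted p = 3.07e-05), and Gal, galanin, had 19.8, 27.4 and 27 in KO footprints, against 1.2, 3.67 and 1.22 in KO inputs (log2 3.17 ± 0.46, and 1.71 with 8 added before logs). Gal passed the filter only through its footprints, so its direction was set by that and its call is no support for the list. Avp, vasopressin, Npy, neuropeptide Y, and Penk, proenkephalin, were at 2.70, 1.51 and 1.54, all called. Vip, vasoactive intestinal peptide, had 92.5, 101 and 71.7 in KO footprints, against 96.1, 116 and 77.4 in KO inputs (log2 -0.12 ± 0.23, adjusted p = 0.684), with overlap between the groups. Gh, Pomc and Prl did not pass the filter, and 1 of these was listed at 0 in all 6 libraries.

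Tubulins, actins and their partners had 9 higher and 4 lower of 18, with a median of 0.46, and 2 were called lower without KO footprint replicate 1. Tubb4a, a neuronal and oligodendrocyte beta-tubulin, had 5705, 6168 and 5709.8 in KO footprints, against 1554, 1688 and 1604 in KO inputs (log2 1.86 ± 0.08, adjusted p = 9.2e-06). Tuba1a and Tuba1b, alpha-tubulins, were lower at -1.18 and -1.20, and the sum of the Tuba1 genes gave a log2 ratio of -1.15. Actg1, cytoplasmic gamma-actin, had 8634, 9206 and 8011 in KO footprints, against 1239, 1409.9 and 1299 in KO inputs (log2 2.71 ± 0.09), while Actb was near equal. These actins are nearly identical in coding sequence, and their sum had 21939, 23681 and 21970.2 in KO footprints, against 18603, 19147 and 17177 in KO inputs, a log2 ratio of 0.30.

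Markers of brain cell types were checked in the same libraries. In bulk tissue, fewer cells of a type and less RNA per cell cannot be told apart, and a footprint ratio of a marker does not say in which cells the ribosomes were. The markers were present in both kinds of library, at unlike signal. The microglial markers summed to 2203 to 2240 in KO footprints and 1444 to 1567 in KO inputs. The oligodendrocyte markers summed to 60587 to 67505 in KO footprints and 35720 to 38008 in KO inputs. Of 12 genes each, 8 neuronal, 9 oligodendrocyte, 9 astrocyte, 5 microglial and 5 endothelial markers were higher in footprints, and 1, 0, 2, 0 and 1 lower; the counts of 0 were also 0 at an unadjusted p under 0.05 in limma. The list medians were 0.69, 0.58, 0.98, 0.42 and 0.40. The microglial count was 3 without KO input replicate 3 or KO footprint replicate 1, and the endothelial count was 3 without KO footprint replicate 3. Nefm, a neurofilament subunit, had 3744, 3847 and 3697 in KO footprints, against 1025, 1218 and 1027 in KO inputs (log2 1.79 ± 0.10), and Gja1, the astrocytic connexin 43, had 4515, 4024 and 4226 in KO footprints, against 1110.1, 917 and 1254 in KO inputs (log2 1.97 ± 0.13). Stmn2, a tubulin-binding protein of neurons, was lower, with 1272, 1458 and 1372 in KO footprints, against 3419, 3845 and 3129 in KO inputs (log2 -1.34 ± 0.10, adjusted p = 7.03e-05). Flt1, a VEGF receptor, was higher at 2.24 ± 0.16, and Tek, the endothelial angiopoietin receptor, lower at -2.88 ± 0.44.

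Of 8 choroid plexus markers, 3 were higher and 0 lower by limma, as at an unadjusted p under 0.05, with a median of 0.90 (0.34 without KO input replicate 2); 1 was called higher without KO input replicate 3 or KO footprint replicate 3. Of 5 tested blood cell genes, 2 were higher and 2 lower. Hba-a1 and Hba-a2 encode the same alpha-globin, and they went in opposite directions, with 2411, 3652 and 3001 in KO footprints, against 275, 319.5 and 419 in KO inputs for Hba-a1 and 396, 1146 and 593 in KO footprints, against 2026, 3104 and 2762 in KO inputs for Hba-a2. Their sum had 2808, 4798 and 3595 in KO footprints, against 2300.4, 3424 and 3182 in KO inputs, and the sums overlapped between the groups. Of 10 genes of liver, muscle and testis listed as absent from brain, 4 passed the filter, and their summed signal was 43.3 to 113 in footprints and 154 to 1738 in inputs, the highest input being replicate 2.

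Because PCIF1 acts on mRNAs that begin with A, the tested genes were grouped by the base at the annotated start. By symbol, 8106 were matched to a RefSeq GRCm38.p6 entry, and symbols with more than 1 entry were left out. In KO brain the 2275 genes with A had a median log2 ratio of -0.21, the 1267 with C -0.17, the 3825 with G -0.21 and the 739 with T -0.28. In WT brain the same classes had medians of -0.27, -0.23, -0.30 and -0.30. The medians of KO minus WT were 0.05 for A, 0.05 for C, 0.06 for G and 0.07 for T. The 4 classes thus lay within 0.11 of each other in KO brain. Within the A class the interquartile range ran between -0.96 and 0.45. That range is the spread among genes and does not measure the error of a median. Whether the classes differ was not tested. The 203 genes with the pyrimidine run had a median of -0.41, against -0.21 for the 7903 without it.

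The same ratio in WT brain is the comparison closest to this one. In WT brain 2395 of 13277 tested genes were higher in footprints (18%) and 4077 lower (30.7%), with a median of -0.27. One library has to be named first: WT footprint replicate 2 stood apart, with a median absolute log2 deviation of 0.468, against 0.290 and 0.357 for the other WT footprints. The largest KO ratios were mostly large in WT brain too. Clip3 had a log2 ratio of 4.37 in KO brain and 4.61 in WT brain, Tspyl4 -8.21 and -8.61, Vamp2 3.78 and 4.01, and Pgk1 -3.95 and -4.70. Some list medians were also near each other, at -1.29 in KO and -1.25 in WT brain for large-subunit ribosomal proteins. They were 1.13 and 1.30 for glycolytic enzymes, and 1.41 and 1.56 for neuropeptides. Other lists lay further apart, at -0.84 in KO and -0.20 in WT brain for iron metabolism genes. SR proteins and CLK kinases were at 0.29 and -0.20, and choroid plexus markers at 0.90 and 0.46.

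The difference between the KO ratio and the WT ratio was tested as an interaction over all 12 libraries. Of 13863 genes, 3 had a higher ratio in KO brain (0.0216%) and 1 a lower ratio (0.00721%) by limma with Benjamini-Hochberg adjustment, while 1332 had an unadjusted p under 0.05. None of the 34 lists held a called gene except the endothelial one. Without WT footprint replicate 2, 485 genes had a higher and 328 a lower ratio in KO brain, and without the other libraries in turn 2 to 5 were higher and 1 or 2 lower. The number of genes that differ between the genotypes thus rests on this library.

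Abcb1a, the P-glycoprotein drug pump of the blood-brain barrier on chromosome 5, was the 1 called gene with an established name. In KO brain it had 289, 387 and 668 in KO footprints, against 936, 641 and 384 in KO inputs, with overlap and a log2 ratio of -0.54 ± 0.39 (adjusted p = 0.283). In WT brain it had 18.5, 16.9 and 15.4 in WT footprints, against 534, 489 and 278 in WT inputs, without overlap and a log2 ratio of -4.55. The interaction was 4.01 ± 0.52 (adjusted p = 0.0204), and the call was lost in 5 of the 12 fits that left out a library. Footprints were high in all KO libraries and low in all WT libraries. The other called rows were the predicted genes Gm10260, Gm4737 and Gm21985, each with 1 of the 4 groups listed at 0.

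**Figure D5:**
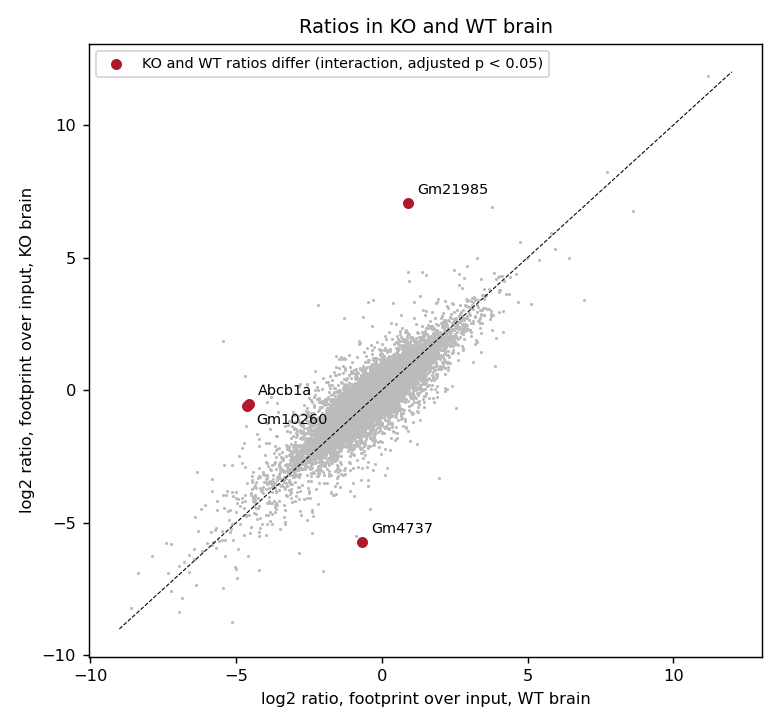
Log2 ratio of footprint over input in KO brain (y axis) against the same ratio in WT brain (x axis), for genes tested in KO brain that also have a WT ratio. Most genes lie along the dashed line of equal ratios, and the 4 red genes, Abcb1a, Gm10260, Gm4737 and Gm21985, had an interaction at an adjusted p under 0.05.

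The filter sets the lower edge of what is described. Kbtbd6, with 7.56, 27.3 and 13.9 in KO footprints and 8.18, 8.71 and 10.0 in KO inputs, was just inside, and Arg2, with 7.79, 10.6 and 10.9 in footprints and 9.49, 9.99 and 7.36 in inputs, was just outside. Of the tested genes, 11564 reached 10 in all 6 libraries. A further 105 reached it in every footprint and no input, and 332 in every input and no footprint, so these passed through one kind of library and their direction was set by that.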

How the data were processed

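Per the labels' protocols, lysates of snap-frozen adult brain gave RNase I footprints and total input RNA. The deposited brain table holds a normalised signal per gene for 12 libraries (3 each of KO footprint, KO input, WT footprint and WT input); the way the authors normalised it was not recorded there. Per the submitters' processing notes the tools were STAR, Salmon (0.12.0), R (3.6.2), DESeq and DESeq2 (1.25.10), listed with no role. For genome build, annotation and strand handling, the entry is: not given in the sources used here. Between 8.49% and 15.1% of values in the KO libraries were whole multiples (within 0.01) of the estimated worth of 1 read, so reads were not recovered, no count model was used, and intervals from counts are not given.

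The table has 50765 rows, 22008 of them protein-coding. Each library was rescaled to the same protein-coding total (4727170). KO footprint and KO input libraries were compared with limma 3.58.1 in R 4.3.3 (trend, log2(signal + 1), Benjamini-Hochberg adjustment, call at 0.05) for genes at 10 or more in at least 3 of 6 libraries. WT brain was fitted alone in the same way. The interaction used all 12 libraries, with genes at 10 or more in at least 3. Replicates are 3 brains per genotype, numbered in accession order only. Ratios are footprint minus input on the log2 scale, which understates changes of low genes. SE is the limma standard error.

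Named genes were Pcif1, the 12 highest and 12 lowest ratios (called, mean signal of at least 50, groups apart, no predicted model), the 8 highest footprint and 8 highest input signals, and the 2 highest and 2 lowest of each of 34 lists. Some genes that meet this rule are not reported here. Other list members are named as examples chosen after their values were seen. Members and lists were chosen with earlier results of these data known. Gene starts came from RefSeq GRCm38.p6. The 30 other samples of the series were not used here. The procedure was tested on simulated data. The alternatives were other scalings, pseudocounts, filters and spreads, array weights, pseudogene rows added, and each library left out.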

Additional observations from a re-analysis of the deposited data

Results flagged for a closer look

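Rows whose footprint-to-input ratio differed between KO and WT brain, by the limma interaction over 12 libraries, were picked out for a closer look. There were 4 of them.

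Abcb1a (adjusted p = 0.0204) had 289, 387 and 668 in KO footprints, against 936, 641 and 384 in KO inputs. In WT brain it had 18.5, 16.9 and 15.4 in footprints, against 534, 489 and 278 in inputs. The call was lost in 5 of the 12 fits that left out a library.

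Gm10260 (adjusted p = 0.000895) had 149, 172 and 188 in KO footprints, against 250.2, 217 and 301 in KO inputs. In WT brain it was listed at 0 in every footprint library, against 26.6, 26.2 and 19.2 in inputs. The input signal was thus higher in every KO library than in every WT library as well.

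Gm4737 (adjusted p = 0.000895) was listed at 0 in every KO footprint library, against 42.4, 50.3 and 64.1 in KO inputs. In WT brain it had 27.9, 51.7 and 40.8 in footprints, against 73.9, 62.8 and 53.0 in inputs.

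Gm21985 (adjusted p = 0.00116) had 209, 76.2 and 149 in KO footprints, against 0 in every KO input. In WT brain it had 75.7, 113 and 56.0 in footprints, against 28.9, 40.2 and 60.9 in inputs. These 3 predicted genes kept the call in all 12 fits that left out a library. No fold is given for them, since a group was at 0.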

How the results depend on the processing

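No paired analysis was possible because the labels carry no replicate numbers and do not tie footprint libraries to inputs. No count model was run, because whole reads were not recovered. For KO brain, the counts of genes called higher and lower stayed within 1.5 times of 2587 and 4172 under every alternative run, including deposited values (3366 and 3315), centring on the median gene (3200 and 3487) and, added after seeing the data, pseudogene rows added to their genes (2585 and 4178). Leaving out 1 library gave 2189 to 2510 higher and 3413 to 3834 lower; for WT brain the ranges were 1773 to 2851 and 2992 to 4815. The interaction gave 0 genes higher and 1 lower with 8 added before logs, and leaving out 1 library gave 2 to 485 higher and 1 to 328 lower. The upper ends came without WT footprint replicate 2. The cause was not tested.

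Of 171 named ratios, 147 were called; 12 of these lost the call without at least 1 library, none turned direction without a library, and 12 lost it or turned under another setting. Pgam1 turned to 1.15 with pseudogene rows added. The other turns were in uncalled genes near 0. Deposited values gave 0.18 for Pcif1, 0.18 for Rps9, 0.083 for Psmd1, 0.0023 for Psmd13 and 0.081 for Vip. Centring on the median gene gave 0.14 for Pcif1, 0.13 for Rps9, 0.035 for Psmd1 and 0.033 for Vip, and array weights gave 0.012 for Vip. Leaving out 1 KO library in turn, Pcif1 ran between -0.22 and 0.26, Rps9 between -0.14 and 0.056, Vip between -0.27 and 0.018, Srm between -0.013 and 0.52 and Alb between -0.75 and 1.84. Depth limits low genes: 13 tested genes had inputs at 0 and 54 had footprints at 0.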
